A study of Homo sapiens with 4 samples.

Results

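The ERBB receptor family holds 4 genes, EGFR, ERBB2, ERBB3 and ERBB4, and their accessible chromatin is described here in A375 cells, an established human melanoma line with a mutated BRAF kinase. Their regions were chosen by position: those overlapping a RefSeq GRCh38 gene span extended by 10 kb on both sides, which gave 69 of the 125986 regions in the authors' deposited table. EGFR held 17 of them, ERBB2 held 4, ERBB3 held 4 and ERBB4 held 44. The family itself was chosen on a measured value, the adjusted p of 1 region in EGFR, so every count and fold change of octanoate over vehicle below is a description of these libraries and no independent test.

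Open DNA was tagged by the Tn5 transposase and sequenced (ATAC-seq). Cells of 1 group received 1 mM octanoate for 48 h (2 libraries), and cells of the other received isopropanol, its vehicle, for the same time (2 libraries). All 4 libraries came from the same line kept in DMEM with serum, and the labels name no other agent or allele. The labels do not say whether the 2 libraries of a group came from separate cultures, so a standard error (SE) may measure technical spread alone. The table gives 1 mean over the 4 libraries, 1 fold change and 1 standard error for each region; values of single libraries were not analysed here.

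ERBB receptors sit in the cell membrane and signal in pairs. Ligand binding lets 2 receptors meet, after which their kinase domains phosphorylate tails that recruit adaptors of the RAS-ERK and PI3K pathways. EGFR binds EGF, TGF-alpha and related ligands, while ERBB3 and ERBB4 bind neuregulins. ERBB2 has no known ligand of its own and serves as the preferred partner, and ERBB3 has little kinase activity and acts mainly by recruiting PI3K. In melanoma, EGFR is known as a receptor of dedifferentiated cells and of cells that tolerate BRAF inhibitors, and ERBB3 as a neuregulin receptor of the melanocyte lineage.

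The bases before the annotated starts are shown because they mark where the start regions lie and how unlike the receptors' starts are. They come from the RefSeq table of GRCh38.p14, which held 4 starts for 3 of the 4 genes. Each run reads 5′ to 3′ on the gene's strand and ends just before the start. For ERBB2 only the 36 bases between its span and that of PGAP3 are given. Capitals mark matches on either strand to the GC box GGGCGG, the TATA box TATAAA, the AP-1 letters TGANTCA and the ETS letters CCGGAAG, a choice made with the sequences in view. No capitalised matches overlap each other.

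EGFR, first start, chr7:55018767-55019016, plus strand: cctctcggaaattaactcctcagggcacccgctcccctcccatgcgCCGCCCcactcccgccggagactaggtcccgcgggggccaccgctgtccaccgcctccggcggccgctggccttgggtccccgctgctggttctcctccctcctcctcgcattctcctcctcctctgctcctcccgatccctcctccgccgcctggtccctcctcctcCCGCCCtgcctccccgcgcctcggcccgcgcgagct
EGFR, start inside the gene, chr7:55109589-55109838, plus strand: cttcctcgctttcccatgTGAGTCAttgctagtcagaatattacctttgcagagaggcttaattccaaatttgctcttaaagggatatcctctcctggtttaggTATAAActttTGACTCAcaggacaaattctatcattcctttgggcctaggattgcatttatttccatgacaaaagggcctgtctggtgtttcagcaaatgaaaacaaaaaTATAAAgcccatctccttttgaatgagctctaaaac
ERBB2, chr17:39688058-39688093, plus strand: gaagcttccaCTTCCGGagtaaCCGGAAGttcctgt
ERBB4, chr2:212538803-212539052, minus strand: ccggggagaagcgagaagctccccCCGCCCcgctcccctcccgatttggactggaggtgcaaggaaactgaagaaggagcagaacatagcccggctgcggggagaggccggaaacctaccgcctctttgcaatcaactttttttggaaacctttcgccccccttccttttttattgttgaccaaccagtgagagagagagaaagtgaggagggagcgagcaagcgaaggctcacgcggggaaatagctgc

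The 250 bases before the first EGFR start were 73.6% G and C, against a median of 62% over 22198 such windows of protein-coding genes. They held 2 GC box matches, which 31.9% of windows have at least, and 0 TATA box matches. They also held 8 matches to TCCTCC on either strand, some overlapping each other, a number reached by 0.203% of windows. TCCTCC too was chosen with the sequences in view, so this share is a description and no test. One pair of motifs, a TCCTCC and a GC box match, shared bases. The window before the start inside EGFR was 38.8% G and C, with 2 AP-1 matches (0.270% of windows have at least that many) and 2 TATA box matches (1.5%). The 36 bases between ERBB2 and PGAP3 held 2 ETS matches on opposite strands, and 1.64% of 250-base windows hold 2 or more. ERBB4 had 1 GC box match in 57.2% G and C. A match describes letters and names no bound factor.

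All 250 bases of the window lay inside a listed region at the first EGFR start, at ERBB2 and at ERBB4. No region covered the window before the start inside EGFR, and the nearest lay 1565 bp from that start. Over all protein-coding starts of the table, 64.8% of 22198 lay in a region. Of 7 melanocyte lineage genes looked up, 5 had a listed start. A region covered a start in 3 of the 5 (MITF, DCT and PAX3, not MLANA or TYR). Of 15 genes of other lineages 6 had a listed start, and a region covered 1 of these, in TP63. Beside the 64.8% of all starts, counts this small do not establish the cell type. The MITF start region had a mean of 168 normalized reads, the PAX3 one 58.2, the DCT ones 30.0 and 20.9, and the TP63 one 15.7.

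Across the series, fold changes lay mostly above 0. The median log2 fold change (log2FC, octanoate over vehicle) of the authors' deposited table was 0.23 over all regions and 0.19 over the 11185 regions whose mean reached 63.8 normalized reads, the only ones that the deposited adjustment covered; these are called tested here. By DESeq2 with Benjamini-Hochberg adjustment, 1.02% of the tested regions were called at an adjusted p under 0.05, all of them higher after octanoate. Of the 69 receptor regions 7 were tested: 4 at EGFR, 2 at ERBB3, 1 at ERBB4 and 0 at ERBB2. Exactly 1 of the 7 was called, and it is the region that led to the choice of the family. At an unadjusted p under 0.05 there were 2 of 69 receptor regions, both higher, against 3.76% of all regions.

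**Figure D1:**
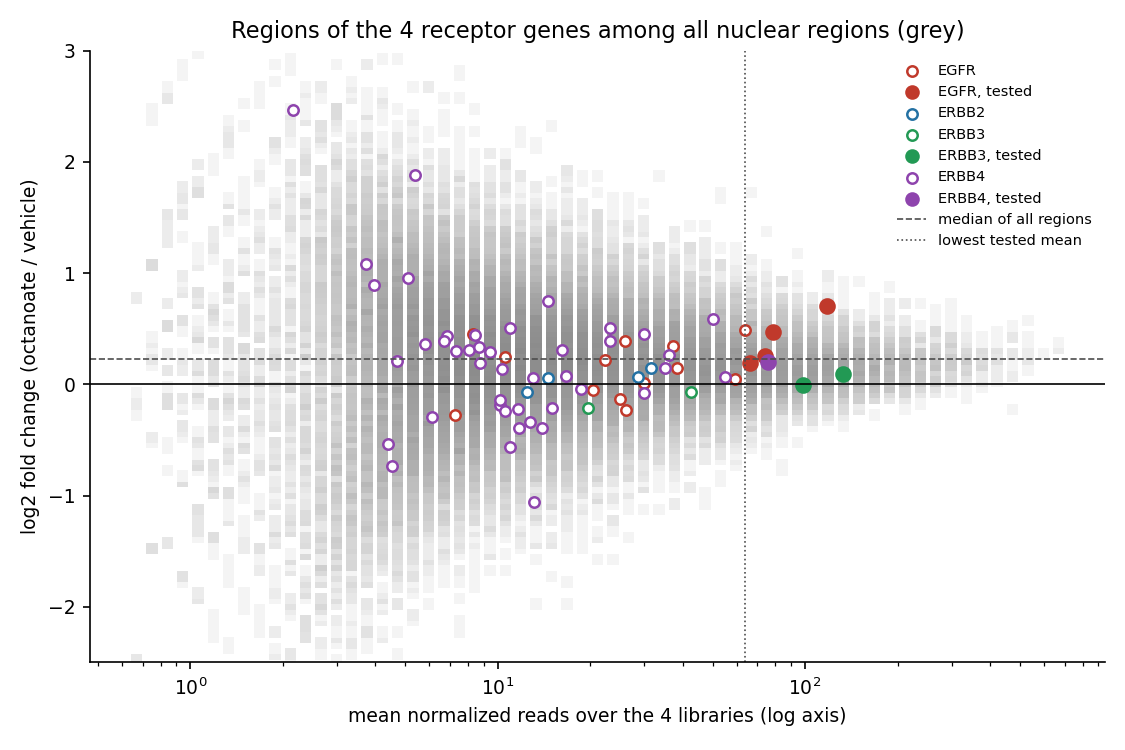
Mean normalized reads over the 4 libraries (x, log axis) against the deposited log2FC of octanoate over vehicle (y) for the 69 receptor regions, coloured by gene, over the density of all nuclear regions in grey; filled points are tested regions. The filled EGFR point at 0.70 is the called region, while the ERBB2 and ERBB3 points lie close to 0 and below the dashed median of all regions, 0.23.

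EGFR carried the called region and most of the tested ones. The 17 regions spread over its span of 193 kb (chromosome 7, 55019017 to 55211628) with 1 in the flank. Group means are given below as implied by the table: with groups of equal size, the mean over all libraries and the fold change fix both group means approximately. Summed over the 17 regions, these were 638 normalized reads for vehicle and 784 for octanoate, a log2 ratio of 0.30. Without the called region they were 548 and 638, a log2 ratio of 0.22, beside 0.21 for all nuclear regions summed in the same way.

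The called region lay at 55132504 to 55134277, within the EGFR span, 113 kb beyond the first start and 22.7 kb beyond the start inside the gene. Long introns of EGFR are known to hold regulatory elements; exons and introns were not analysed here. The region's implied mean was 89.4 normalized reads for vehicle and 146 for octanoate. In the authors' deposited table its log2FC was 0.70 (SE 0.19, adjusted p 0.0344 by DESeq2), a 1.63-fold rise with a 95% interval of 1.25 to 2.12. It was the strongest of the 17 EGFR regions by mean and held 16.5% of their summed signal. Among the 114 called regions of the series it ranked 95 by p and 73 by fold change. The call was lost after the median of the tested regions was subtracted from each fold change (adjusted p 0.802). It was also lost when the adjustment covered all regions (adjusted p 0.283).

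The other tested EGFR regions had smaller fold changes that were not called. The start region (55018576 to 55019829) covers the first EGFR start and that of the noncoding gene LOC105375284 on the opposite strand. Its implied mean was 67.4 for vehicle and 80.4 for octanoate, with a log2FC of 0.25 (SE 0.24, adjusted p 0.650, DESeq2) in the authors' deposited table. A region at 55086286 to 55087372, 67.8 kb into the gene, had 61.8 and 70.8, and a log2FC of 0.20 (adjusted p 0.754, DESeq2) in the authors' deposited table.

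Near the end of EGFR, 2 regions overlapped EGFR-AS1, a noncoding gene within the EGFR span. The stronger one (55185482 to 55186701) had implied means of 66.2 for vehicle and 91.6 for octanoate. Its log2FC in the authors' deposited table was 0.47, with an SE of 0.25 and an adjusted p of 0.357 (DESeq2). The weaker one had 20.6 and 24.0. With the called region, the EGFR-AS1 region formed the pair with the highest implied octanoate means in the gene.

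Of the 13 EGFR regions below the tested mean, the one at 55065030 to 55066158 (highest mean of the 13) missed it by 0.231 normalized reads, at 63.6. Its implied means were 52.9 for vehicle and 74.3 for octanoate, with a log2FC of 0.49 (SE 0.27, unadjusted p 0.0685) in the authors' deposited table. This was the highest fold change of the 13. The lowest, -0.28, belonged to a region of 7.25 mean normalized reads at 55131661 to 55131919, just 584 bp before the called region. The called region closes a cluster of 4 regions over 7.11 kb, and the other fold changes in it were -0.23, 0.15 and -0.28 in the authors' deposited table. Regions next to the called one thus had values below or near 0, with SEs of 0.34 to 0.79.

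Over the whole gene 13 of 17 EGFR regions were above 0, or 76.5%, against 72.1% of all regions. Up to and including the called region, 11 regions had a median log2FC of 0.25 in the authors' deposited table. The 6 regions beyond it had a median of 0.029, while the 1 tested region among them, at EGFR-AS1, had 0.47. The region in the flank after the gene (55212661 to 55213376) had implied means of 58.1 and 60.1. That flank region had the highest signal of the 17 by length, 82.6 normalized reads per kb, against 66.3 in the called region. This division of the gene was made after the values were seen, at the region on which the family was chosen.

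**Figure D2:**
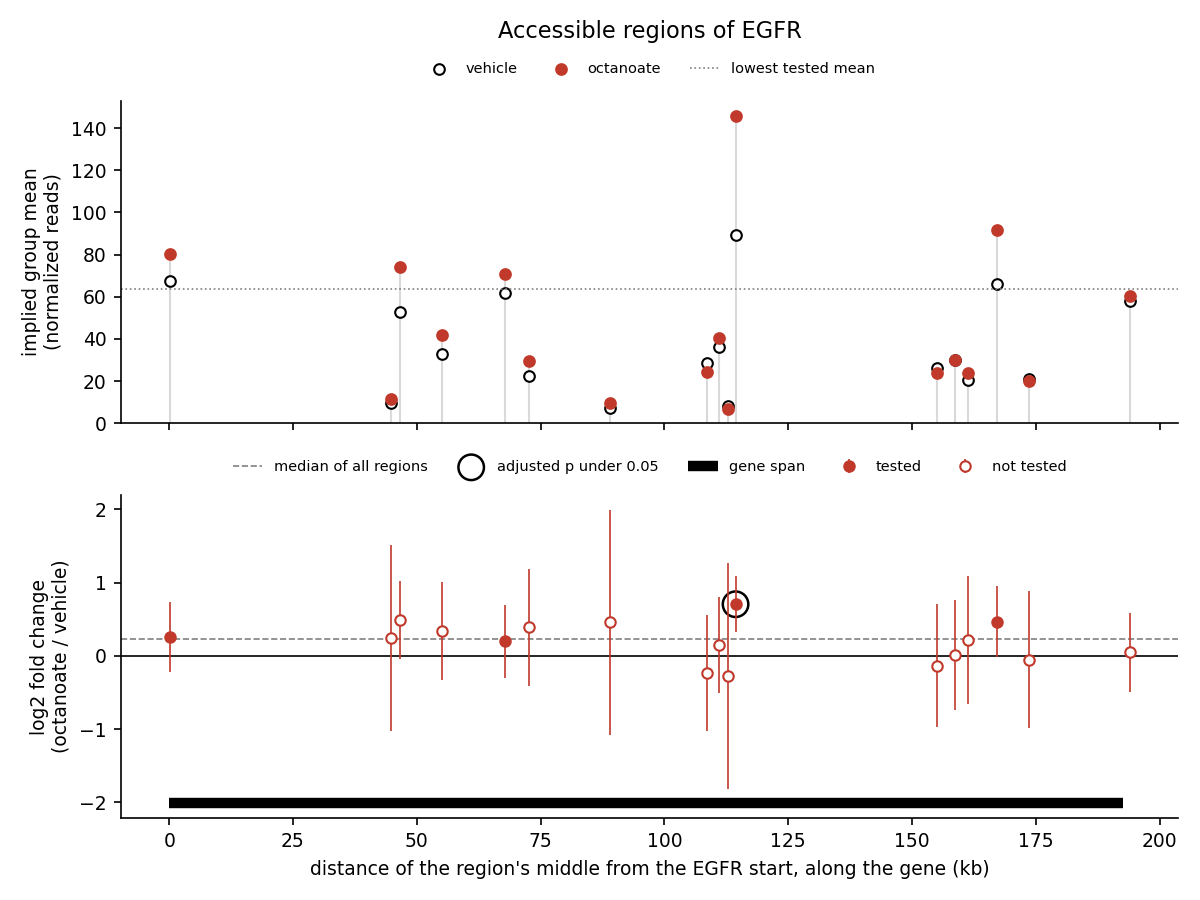
The 17 EGFR regions by distance of their middle from the first start (x, kb): implied group means in normalized reads for vehicle (open) and octanoate (filled) above, and deposited log2FC values with 95% intervals below. The circled region at 114 kb is the 1 with an adjusted p under 0.05, and the intervals of the other 16 include 0.

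ERBB2, the partner receptor without a ligand, showed little difference between the groups in 4 regions, all below the tested mean but above the median mean of all regions. Its start region (chromosome 17, 39687704 to 39688262) covers the ETS-bearing gap shown above and also the start of PGAP3, a gene of GPI anchor remodelling transcribed the other way. Its implied mean was 27.9 for vehicle and 29.3 for octanoate, with a log2FC of 0.071 (SE 0.40) in the authors' deposited table. Further in, regions 8.14 and 12.0 kb from the start had log2FC values of -0.068 and 0.057 in the authors' deposited table. The fourth region lay past the end of ERBB2, overlaps no base of the ERBB2 span and covers the start of MIEN1. Its signal cannot be assigned to ERBB2. Its implied means were 29.9 and 33.0.

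None of these 4 regions was tested, and their depth sets a wide margin. Log2 fold changes of 0.74 to 1.26 would have been needed for an unadjusted p of 0.05. The 95% interval of the ERBB2 start region ran from -0.72 to 0.86, so a rise like that of the called EGFR region was not detectable as different from 0 there.

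At ERBB3 the groups were closest. The region over the low end of its span, where the gene is known to start (chromosome 12, 56078849 to 56080775), had an implied mean of 98.5 for vehicle and 98.4 for octanoate. Its log2FC in the authors' deposited table was -0.0016, with an SE of 0.21 and an adjusted p of 0.998 (DESeq2). The 95% interval ran from -0.41 to 0.41 and overlaps that of the called EGFR region, 0.32 to 1.09. The difference of the 2 regions, 1 of them chosen on its adjusted p, was not tested. A pair of regions just inside the gene had implied means of 21.0 and 18.2, and of 43.5 and 41.5, for vehicle and octanoate. Both were lower after octanoate by less than their SEs of 0.47 and 0.32.

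The strongest receptor-assigned region of all lay after the end of ERBB3 (56103944 to 56105000) and covers the starts of the noncoding gene LOC105369782 and of PA2G4, which encodes an ERBB3-binding protein. It overlaps no base of the ERBB3 span, so its signal cannot be assigned to ERBB3. Its implied means were 128 and 137, and its log2FC was 0.093 (SE 0.18, adjusted p 0.847, DESeq2) in the authors' deposited table. At 125 normalized reads per kb it also led the 69 regions by length. None of the 4 regions counted at ERBB3, this one included, reached the median fold change of all regions, 0.23. Without it the ERBB3 median was -0.070.

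ERBB4, a neuregulin receptor best known from neurons and heart, had many weak regions along a very long gene. The 44 regions lay over 1163 kb (chromosome 2, 211375717 to 212538802), or 3.72 per 100 kb with the flanks, against 8.0 at EGFR, 6.60 at ERBB2 and 9.22 at ERBB3. Their median of mean normalized reads was 10.8, below the 12.2 of all regions. The start region (212536741 to 212539513) alone was tested and was the widest of the 69, at 2773 bp. Its implied means were 70.6 and 81.3, with a log2FC of 0.20 (SE 0.24, adjusted p 0.724, DESeq2) in the authors' deposited table.

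The median log2FC of the ERBB4 regions in the authors' deposited table was 0.21, and 29 of 44 were above 0, or 65.9% beside 72.1% of all regions. The region with the lowest unadjusted p, 0.0457, lay 486 kb into the gene (212052174 to 212053120). It had implied means of 39.9 and 60.1, a log2FC of 0.59 (SE 0.30) in the authors' deposited table, and a mean of 50.0, too low to be tested. It also had the highest signal by length in ERBB4, 52.8 normalized reads per kb. The second strongest region by mean (211927307 to 211928717) had 53.4 for vehicle and 56.1 for octanoate.

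The highest ERBB4 fold change came from the weakest of its regions. This value, 2.46 in the authors' deposited table, came from a region of 2.16 mean normalized reads with an SE of 2.05 (212361291 to 212361513). The next, 1.88, lay in the flank past the end of the gene at a mean of 5.38. The lowest, -1.06, had a mean of 13.1, above the median of all regions, with implied means of 17.7 for vehicle and 8.50 for octanoate and, per the authors' deposited table, an unadjusted p of 0.0744. The 18 ERBB4 regions with at least the median mean of all regions had a median log2FC of 0.11, and the 26 weaker ones 0.29.

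**Figure D3:**
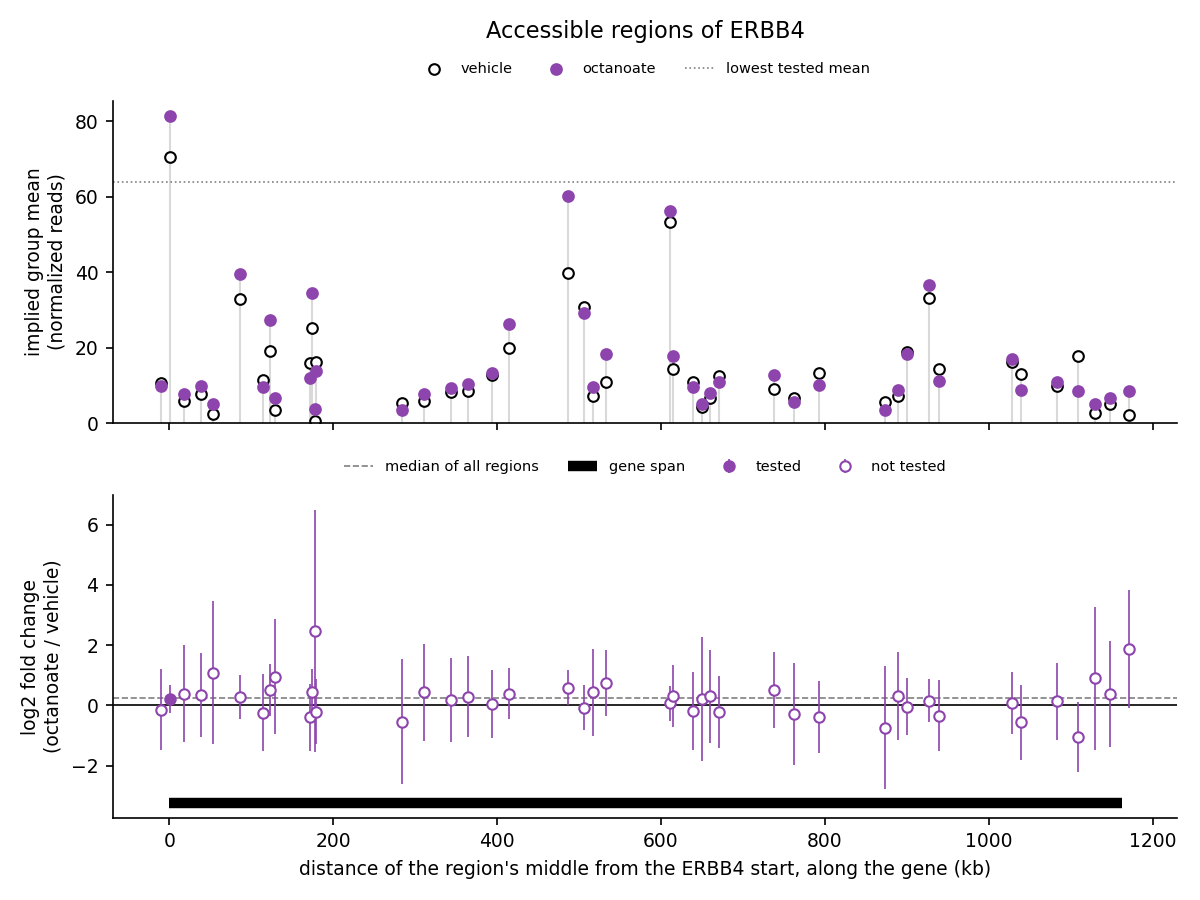
The 44 ERBB4 regions by distance of their middle from the start (x, kb), with implied group means in normalized reads above and deposited log2FC values with 95% intervals below. The start region at 0.675 kb is the 1 tested region, and the intervals widen where the implied means are low.

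Set side by side at their starts, the receptors had log2FC values in the authors' deposited table of 0.25 (EGFR), 0.20 (ERBB4), 0.071 (ERBB2) and -0.0016 (ERBB3). All neighbours in this order differ by less than the SEs, 0.21 to 0.40. The median over 10866 regions covering protein-coding starts was 0.14, with quartiles of 0.0085 and 0.26, so EGFR and ERBB4 lay above that median and ERBB2 and ERBB3 below it. By length, signal was 58.9 normalized reads per kb at the EGFR start, 51.2 at ERBB2, 51.1 at ERBB3 and 27.4 at ERBB4. The middle 50% of start regions ran from 36.0 to 73.8, and the ERBB4 start lay at percentile 12.5 of them.

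By gene, the median log2FC in the authors' deposited table was 0.22 at EGFR, 0.21 at ERBB4, 0.064 at ERBB2 and -0.036 at ERBB3. The first pair lies near the 0.23 of all regions and the second pair below it. Relative to that median all 4 are negative, from -0.27 at ERBB3 to -0.013 at EGFR. The EGFR median over its 4 tested regions, the called one included, was 0.36, beside 0.19 for all tested regions. Over the 69 regions together the median was 0.15, and 46 were above 0, or 66.7% beside 72.1% of all regions.

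The wider pathway was read from a list of 29 genes in 4 roles, all of which had at least 1 region. Of its 230 regions 25 were tested and 0 were called (DESeq2, adjusted p under 0.05), beside 1.02% of all tested regions. At an unadjusted p under 0.05 there were 6 of the 230, each higher, beside 3.76% of all regions. Of the 25 tested pathway regions 3 passed that p, beside 14.9% of all tested regions. The tested pathway regions had a median log2FC of 0.11 in the authors' deposited table, against 0.19 for all tested regions, and 21 of 25 were above 0, beside 85.7% of all tested regions.

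Negative regulators held the highest tested value of the list. A region within CBLB, a ubiquitin ligase that marks active receptors for breakdown (chromosome 3, 105792110 to 105792922), had implied means of 49.6 for vehicle and 81.0 for octanoate. Its log2FC was 0.71 (SE 0.26, adjusted p 0.136, DESeq2) in the authors' deposited table, and it was not called. The CBLB start region had 0.082. The start region of LRIG1, a membrane protein that lowers ERBB levels, had 193 and 245, with a log2FC of 0.34 (adjusted p 0.231, DESeq2) in the authors' deposited table. PTPN1, a phosphatase acting on EGFR, had the lowest tested value of this role, -0.063.

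Among adaptors and effectors, the start region of PLCG1, a phospholipase recruited by EGFR, had implied means of 247 and 306. Its log2FC was 0.31 (SE 0.14, adjusted p 0.275, DESeq2) in the authors' deposited table, and a second PLCG1 region 3.89 kb into the gene had the lowest tested value of the role, -0.052. Of the proteases and carriers that release ligands, ADAM17 (start region) had a log2FC of 0.28 and ADAM10 (start region) 0.080 in the authors' deposited table. TGFA, a ligand of EGFR, led the tested ligand regions at 0.33 (adjusted p 0.459, DESeq2), and NRG1, a neuregulin, had the lowest, 0.016.

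In the neuregulin genes 3 weaker regions, chosen after their values were seen, had an unadjusted p under 0.05 and were too low to be tested. Within NRG1 (chromosome 8, 32158723 to 32159199) the implied means were 10.1 for vehicle and 23.5 for octanoate, with an unadjusted p of 0.0186. Within NRG2 (chromosome 5, 139985563 to 139986219) they were 26.5 and 48.4, with an unadjusted p of 0.0110. Within NRG3 (chromosome 10, 82742437 to 82742923) they were 14.3 and 30.0, with an unadjusted p of 0.0180. The log2FC values of these 3 were 1.22, 0.87 and 1.07 in the authors' deposited table. The ligand list had 120 regions, so these are 3 of 120, or below the 3.76% of all regions.

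**Figure D4:**
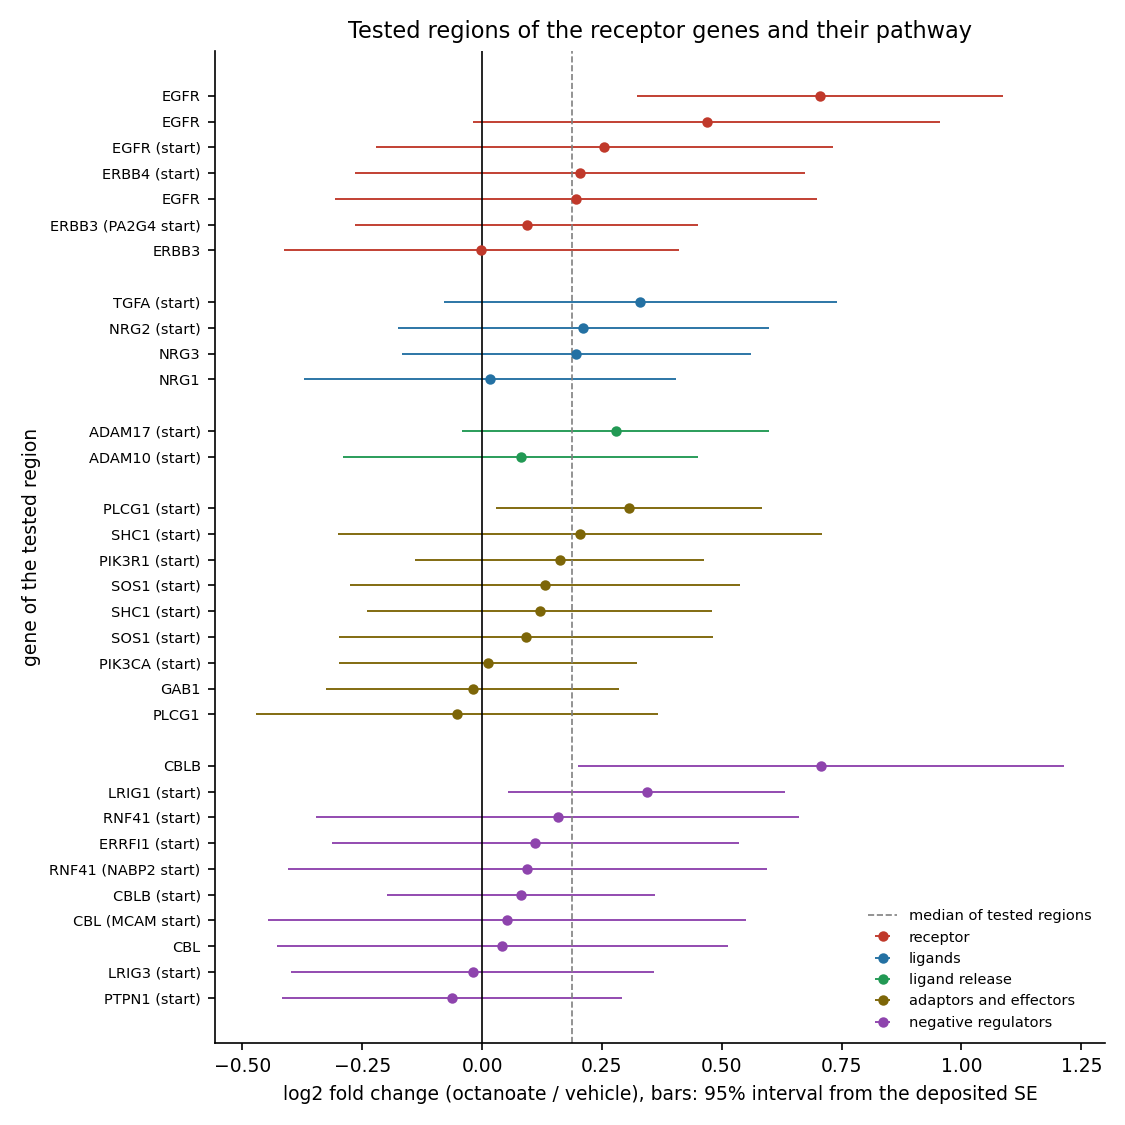
Deposited log2FC of octanoate over vehicle (x) with its 95% interval for the 7 tested receptor regions and the 25 tested pathway regions (y, by role; the gene start in brackets where the region covers one). The EGFR region at 0.70 and the CBLB region at 0.71 stand furthest to the right, and only the first has an adjusted p under 0.05.

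Of the 10 kb limit, the nearest regions outside it lay 11.8 to 33.7 kb from EGFR, ERBB2 and ERBB3. The outermost regions inside it are the start and flank regions already given for these 3 genes. At ERBB4 the outermost region inside, 9.55 kb before the start, had a log2FC of -0.14, and the nearest outside, at 10.6 kb, had 0.093 in the authors' deposited table.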

How the data were processed

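ATAC-seq libraries of octanoate-treated and vehicle-treated A375 cells (2 each) were compared by the authors in 1 deposited table. Per the submitters' processing notes the build was hg38 and the tools included Bowtie2, MACS2, featureCounts, DESeq2 and bedtools 2.29.1; their settings, region merging and Tn5 read shifting are not given in the sources used here. Per the file headers, the signal column holds a normalized read count averaged over all libraries, the log2 fold change and its standard error are octanoate over vehicle, the score is the Wald statistic, and the p-value and adjusted p-value follow from it. The deposited adjusted p equals Benjamini-Hochberg over 11185 regions, whose means start at 63.8; in the other 114801 it is listed as 1, treated here as not tested.

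Region starts were raised by 1 base, since the mitochondrial region starts at 0. Regions were joined to RefSeq spans of GRCh38.p14 (all 33 genes matched; ERBB3 had no entry among the start sequences). Group means were computed from mean and fold change, 95% intervals from the standard error (Python 3.11.15, scipy 1.17.1). Centring and adjustment were tested on simulated data. The depth of each library is unknown here, so precision is given by the standard errors. Regions named were, for each receptor, every tested region, the start region, the strongest and the extreme fold changes; for the pathway, the highest and lowest tested region of each role. Others were singled out after their values were seen: the EGFR region just under the tested mean, the neighbours of the called region, the weaker EGFR-AS1 region, the EGFR flank region, the remaining ERBB2 and ERBB3 regions, the ERBB4 regions with the lowest unadjusted p, the second highest mean and the second highest fold change, the LRIG1 and CBLB start regions, and untested regions of 3 neuregulin genes. The members and lists were chosen with earlier results of these data known. Alternatives covered the adjustment, threshold, centring and extension.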

Additional observations from a re-analysis of the deposited data

How the results depend on the processing

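The 1 call among the receptor regions stood at an adjusted p of 0.1 and with 0 or 50 kb added to the gene spans. These settings could not remove it, since its adjusted p was 0.0344 (DESeq2) and the region lies within the EGFR span. The looser threshold and the 50 kb brought in no other call. The count fell to 0 when Benjamini-Hochberg covered all regions, to 0 at an adjusted p of 0.01, and to 0 after centring on the tested median. The first adds weak regions to the adjustment and the last subtracts a constant of 0.19, which by construction lowers these values. The pathway list had 0 calls under each of these settings (DESeq2, beside 1.02% of all tested regions as deposited; 6 of 230 regions at an unadjusted p under 0.05, beside 3.76% of all regions). At the 0.01 threshold and with 0 kb added no other outcome was possible for this list. With the median of all regions subtracted, the EGFR median became -0.013 and the ERBB3 median -0.27, again by construction. Other settings moved no receptor's median by more than the smallest standard error of its regions; the ERBB3 median changed sign, to 0.046 in tested regions and 0.093 with 50 kb added. ERBB2 had no tested region, so that setting gave no value. No paired analysis was possible because the deposited file holds averages over libraries; leaving out a replicate was not run for the same reason. Depth limits the receptor regions as it does the series: the median standard error of the 69 was 0.56, and that of all regions 0.61.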

Other observations

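Around the called EGFR region, 107 regions lay within 1 Mb on either side, 15 of them tested and 2 called, beside 1.02% of all tested regions. One of the 2 is the region on which the family was chosen, so nothing is read from this count. The other called region of this stretch (chromosome 7, 56105527 to 56106935) had a log2 fold change (log2FC) of 0.69 (SE 0.19, adjusted p 0.0277, DESeq2) in the authors' deposited table. The median log2FC over the 107 regions was 0.25, against 0.23 over all regions.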
